A study of Homo sapiens with 6 samples.

Results

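The RNF genes are named for the RING finger, a zinc-binding fold that most ubiquitin ligases carry, and the name is spread over proteins of many structures and roles. A ubiquitin ligase (E3) brings a charged ubiquitin-conjugating enzyme (E2) to a substrate, and the length and linkage of the ubiquitin chain set whether the substrate is degraded by the proteasome or serves as a signalling platform. In a lung epithelial cell RNF ligases act on RNA and DNA sensors, on chromatin at DNA breaks, on misfolded proteins of the endoplasmic reticulum (ER) and on receptors at the cell surface. The members were taken by name: every protein-coding gene whose symbol is RNF followed by a number and at most 1 letter. The rule found 84 genes of the 60617 gene rows in the count table. They were sorted by known role into 11 role groups that hold 68 members, and 16 members were given no role group.

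RNA was measured in A549, an established human lung cancer cell line, in 3 libraries of YTHDF1 knockout cells (YTHDF1 KO) and 3 libraries of wild-type cells (WT), grown in the same medium. YTHDF1 is a protein that binds mRNA carrying N6-methyladenosine. The titles name each library a biological replicate of its group. The labels name no treatment, edited site or number of clones, and nothing states that the replicates came from separate cultures. The p-values therefore measure the spread between these libraries, part of which may be technical. The YTHDF1 KO libraries held 32037107, 40675628 and 40186533 counts and the WT libraries 38225388, 27238817 and 40460782 counts. Values are counts scaled to a fixed library size (CPM), where 3 counts correspond to between 0.0735 and 0.111 CPM. Means are ± SD over n = 3 libraries a group, and log2 fold changes are YTHDF1 KO minus WT with the standard error (SE). A gene is called higher or lower where its adjusted p is under 0.05 in the quasi-likelihood test of edgeR, after Benjamini-Hochberg correction over the 18505 genes that passed a filter on low counts. Coordinates are those of GENCODE 29 on GRCh38 unless another source is named.

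The YTHDF1 gene itself had 48.6, 48.6 and 47.1 CPM in the YTHDF1 KO libraries, against 98.0, 104 and 96.4 CPM in the WT libraries. Its RNA was lower by a log2 fold change of -1.05 (SE 0.0526, edgeR adjusted p = 7.84e-18) and was still present in each YTHDF1 KO library. Markers of A549 and epithelium summed to between 10321 and 10873 CPM in YTHDF1 KO and between 10629 and 11376 CPM in WT. The sums of leukocyte markers were between 8.45 and 8.75 CPM in YTHDF1 KO and between 14.4 and 15.3 CPM in WT, with CD3E at 0 in the 6 libraries. Endothelial markers summed to at most 0.588 CPM in YTHDF1 KO and 1.27 CPM in WT, and fibroblast markers to at most 47.6 CPM in YTHDF1 KO and 38.1 CPM in WT. These sums hide calls in both directions. Of 8 A549 and epithelial markers tested 3 rose, 2 fell and 3 were not called. Of 5 fibroblast markers tested 2 rose and 3 fell, and of 2 leukocyte markers tested 1 rose and 1 fell. Mitochondrially encoded mRNAs took 3.98%, 3.72% and 3.86% of the counts in YTHDF1 KO and 5.76%, 5.92% and 5.92% in WT. That share moves with genotype, and its part in the results was not tested.

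Promoter sequences are shown for 3 members because the interferon-stimulated response element, the DNA motif bound by ISGF3 and IRF factors, is the element known for genes of the interferon response, and the largest rises in the family included genes known to be induced by interferon. Each line gives the 250 bases before a RefSeq transcription start on GRCh38.p14, plus strand, 5′ to 3′. Capitals mark a match to the motif.
RNF213 promoter, chr17:80260602-80260851: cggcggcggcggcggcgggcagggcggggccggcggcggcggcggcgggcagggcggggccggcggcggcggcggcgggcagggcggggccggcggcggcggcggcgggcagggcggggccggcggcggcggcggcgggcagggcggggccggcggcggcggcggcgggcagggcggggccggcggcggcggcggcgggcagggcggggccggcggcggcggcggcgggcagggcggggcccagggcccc
RNF114 promoter, chr20:49936147-49936396: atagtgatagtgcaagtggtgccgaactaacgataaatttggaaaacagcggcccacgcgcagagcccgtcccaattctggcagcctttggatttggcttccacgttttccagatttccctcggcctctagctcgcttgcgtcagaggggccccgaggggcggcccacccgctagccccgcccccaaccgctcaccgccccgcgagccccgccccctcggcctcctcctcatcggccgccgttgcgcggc
RNF32 promoter, chr7:156642727-156642976: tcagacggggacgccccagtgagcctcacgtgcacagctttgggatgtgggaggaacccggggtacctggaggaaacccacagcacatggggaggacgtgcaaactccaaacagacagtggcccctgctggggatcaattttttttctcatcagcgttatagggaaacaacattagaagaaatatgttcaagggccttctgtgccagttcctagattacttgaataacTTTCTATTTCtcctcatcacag

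The bases before RNF213 are a tandem repeat with a period of 30 bases, in which 97.7% of bases equal the base 30 positions on and 96.4% are G or C. The window before RNF114 is 65.6% G or C. Neither window holds the motif searched, GAAANNGAAA, or its form on the other strand, TTTCNNTTTC. RNF32, which was not called, holds it on the strand opposite to the gene. Over windows from 250 bases before to 50 bases after a start, 1255 of 35116 windows (3.57%) held the motif. Among members, 69 had a window and 2 of these held the motif, RNF31 and RNF32. None of the 22 members with a window that were called higher held it, against 4 of the 5 interferon-stimulated reference genes with a window. At a share of 3.57% over all windows, finding none among so few members tells little. RNF19B and RNF122, which were among the largest rises, had no window and were not searched. The motif and the members shown were chosen after the values were seen, and the absence of these letters from a window says nothing of more distant sites or of degenerate forms.

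Of the 84 members, 69 passed the filter on low counts and were tested, and 36 of them (52.2%) were called, close to the 53.5% of all 18505 genes tested and below the 62.4% of the 13927 protein-coding genes tested. The direction was uneven. In YTHDF1 KO 28 members (40.6%) rose, beside 27.2% of all genes tested and 31.4% of protein-coding genes. Falls numbered 8 members (11.6%), beside 26.3% of all genes tested and 31.0% of protein-coding genes. The other 33 members (47.8%) were not called. The median log2 fold change was 0.09 over the members tested, 0.00 over all genes tested and 0.00 over protein-coding genes tested. Because the genes that pass the filter include any that are high in 1 group only, these shares describe the members tested and not the family.

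Of the 36 called members, 17 changed by less than 0.5 on the log2 scale. By at least 1 on the log2 scale 7 members rose, where 7.95% of all genes tested and 7.84% of protein-coding genes did so, and 2 fell, where 4.44% and 4.07% did. The 3 YTHDF1 KO values lay above the 3 WT values for 30 of the 69 members tested. The same held for 29.8% of all genes tested and 33.5% of protein-coding genes. For 8 members the YTHDF1 KO values lay below the WT values, where 29.1% of all genes tested and 33.2% of protein-coding genes did so. Values of the groups overlapped for the other 31 members.

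**Figure D1:**
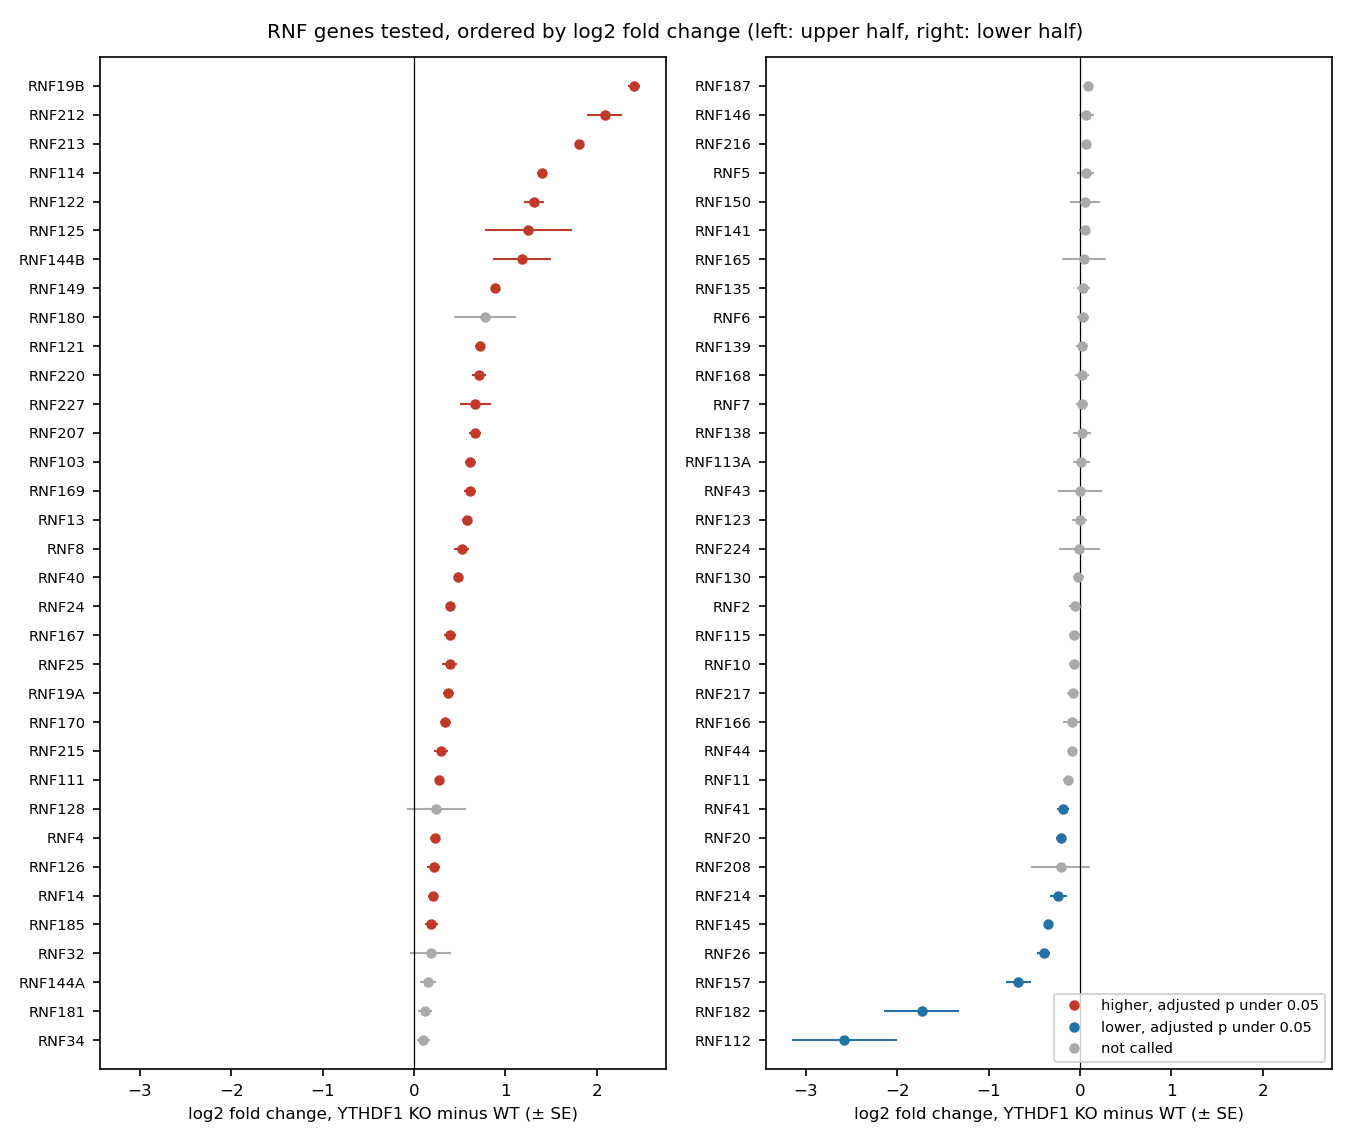
Log2 fold change (YTHDF1 KO minus WT, ± SE) of 68 of the 69 RNF genes tested, ordered from highest at the top left to lowest at the bottom right, red for called higher, blue for called lower and grey for not called. RNF19B stood highest at 2.41 and RNF112 lowest at -2.58, with most points within 0.5 of 0.

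Summed over the family, reads on RNF genes made up a larger share of the library in YTHDF1 KO. The 84 members added up to 5930.5, 5956.2 and 6015.4 CPM in the YTHDF1 KO libraries, against 3562.3, 3494.9 and 3543.1 CPM in the WT libraries, a ratio of means of 1.69. RNF213 alone held 47.4 ± 0.884% of this sum in YTHDF1 KO and 22.8 ± 0.607% in WT. The sum is not corrected for gene length, and RNF213 has 28570 exonic bases, the most of any member. Its share is therefore one of reads and not of transcripts. Without RNF213 the sums were 3141 ± 32.4 CPM in YTHDF1 KO and 2727 ± 21.5 CPM in WT, a ratio of 1.15. The 3 YTHDF1 KO sums exceeded the 3 WT sums either way. An exact two-sided permutation test of 3 libraries against 3 cannot give a p below 0.1. As in any bulk library, a change in the RNA of every cell and a change in the share of cells that make it cannot be told apart.

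**Figure D2:**
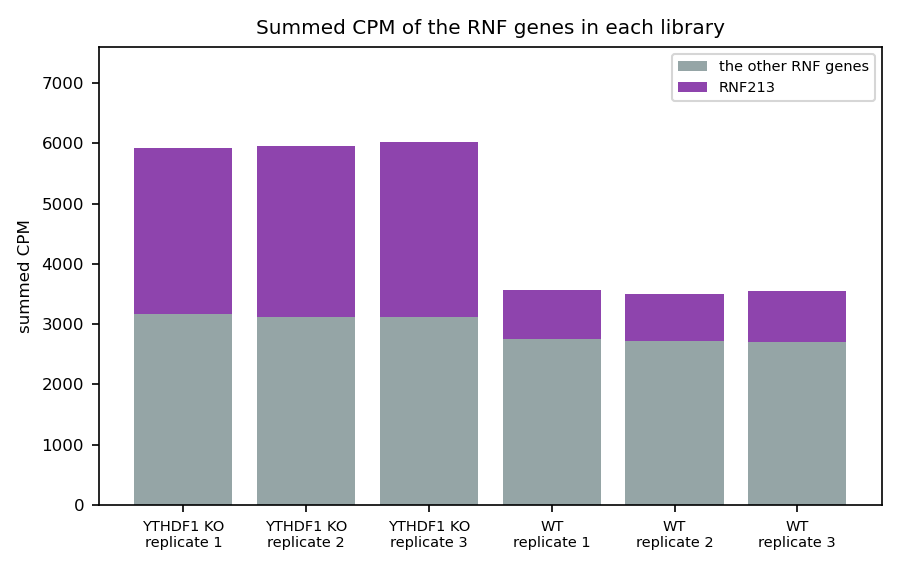
Summed CPM of the 84 RNF genes in each library, RNF213 in purple and the other members in grey. The total is 5967 ± 43.5 CPM in YTHDF1 KO and 3533 ± 34.8 CPM in WT, and most of the gap is the RNF213 segment. The sums count reads and are not corrected for gene length.

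Among the 9 members placed in the role group of RNA and DNA sensing, 4 rose (RNF213, RNF114, RNF122 and RNF125). In this group 1 fell (RNF26) and 4 were not called (median log2 fold change 0.06). The roles given here for RNF213 are not sensing of RNA or DNA. RNF213 (ENSG00000173821, chr17:80260866-80398786, plus strand) encodes a giant ATPase and ubiquitin ligase known for its link to moyamoya disease, a narrowing of brain arteries, and for coating intracellular bacteria with ubiquitin. It had 2753, 2830 and 2898 CPM in the YTHDF1 KO libraries, against 811, 778 and 831 CPM in the WT libraries. These levels were 3.50-fold higher, with a log2 fold change of 1.81 (SE 0.0382, edgeR adjusted p = 1.56e-28), and the groups lay far apart. RNF213-AS1, annotated on the opposite strand, had 26.5, 28.5 and 30.1 CPM in YTHDF1 KO, against 5.62, 5.45 and 6.54 CPM in WT. The sources used here do not give the strand setting of the counting, so reads in bases shared by both strands cannot be assigned. Genes on the opposite strand overlap 2.54% of the exonic bases of RNF213. The level of RNF213-AS1, at most 30.1 CPM in a YTHDF1 KO library, is therefore the uncertain one.

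RNF114 (ENSG00000124226, chr20:49936336-49953892, plus strand), a ligase linked to psoriasis susceptibility and to signalling from double-stranded RNA, had 141, 137 and 148 CPM in the YTHDF1 KO libraries, against 56.1, 52.4 and 52.7 CPM in the WT libraries. The log2 fold change was 1.40 (SE 0.0508, edgeR adjusted p = 8.94e-22), with no overlap of the groups. RNF122 (chr8:33547755-33567125, minus strand), a membrane ligase reported to mark RIG-I for degradation, had 16.3, 18.3 and 17.4 CPM in YTHDF1 KO, against 6.38, 8.09 and 6.59 CPM in WT. It was 2.49-fold higher, a log2 fold change of 1.31 (SE 0.110, edgeR adjusted p = 4.10e-12). RNF125, another ligase that marks RIG-I for degradation, was near the limit of measurement. It had 1.30, 0.515 and 0.786 CPM in YTHDF1 KO, against 0.422, 0.445 and 0.225 CPM in WT, a log2 fold change of 1.25 (SE 0.478, edgeR adjusted p = 0.0272). Its call was lost without YTHDF1 KO replicate 1 (edgeR adjusted p = 0.216), without YTHDF1 KO replicate 3 (edgeR adjusted p = 0.0518) and without WT replicate 3 (edgeR adjusted p = 0.129). The log2 fold change was 0.85 without YTHDF1 KO replicate 1, and 8.28% of its exonic bases overlap another gene on the same strand.

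RNF26, an ER ligase that protects the adaptor STING and holds endosomes near the nucleus, fell. Its levels were 27.8, 25.5 and 28.9 CPM in YTHDF1 KO, against 34.1, 36.9 and 37.3 CPM in WT (log2 fold change -0.40, SE 0.0717, edgeR adjusted p = 1.68e-05). Overlap with a gene on the opposite strand covers 18.2% of the exonic bases of RNF26. RNF135, known as Riplet, attaches activating ubiquitin chains to RIG-I. It had 41.4, 36.7 and 39.4 CPM in YTHDF1 KO, against 35.5, 37.2 and 41.6 CPM in WT, and the groups overlapped. The log2 fold change was 0.04, with an approximate 95% interval of -0.10 to 0.17 (edgeR adjusted p = 0.686). RNF5, an ER-anchored ligase that marks STING and MAVS for degradation, averaged 22.0 ± 2.85 CPM in YTHDF1 KO and 21.0 ± 1.67 CPM in WT, with an interval of -0.11 to 0.24 on the log2 scale (edgeR adjusted p = 0.587). A near-identical processed copy, RNF5P1, had 4, 2 and 8 counts in YTHDF1 KO and 2, 4 and 4 in WT, and how reads that match both were counted is not stated. RNF115, which ubiquitylates MAVS and STING, averaged 54.0 ± 1.59 CPM in YTHDF1 KO and 56.3 ± 3.48 CPM in WT (edgeR adjusted p = 0.403). RNF166, a ligase with roles in the antiviral response and in autophagy of bacteria, averaged 19.5 ± 2.61 CPM in YTHDF1 KO and 20.9 ± 1.98 CPM in WT (edgeR adjusted p = 0.462). For these 4 members a difference as large as that of RNF122 lay outside the approximate 95% interval.

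**Figure D3:**
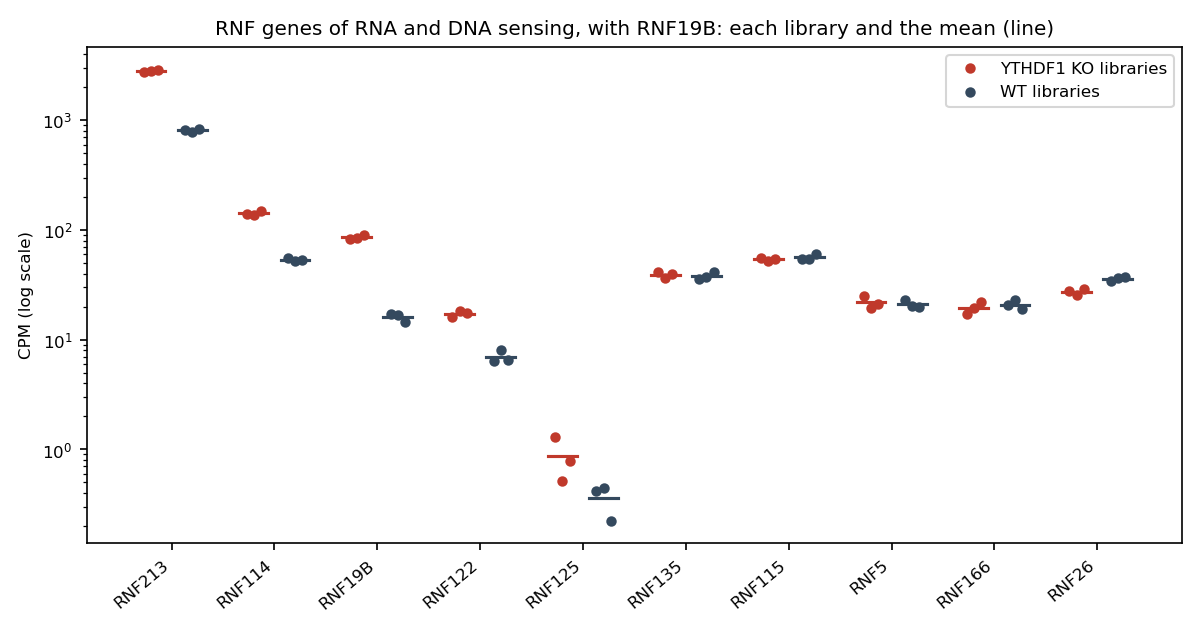
CPM on a log scale of the 9 RNF genes of the RNA and DNA sensing role group and of RNF19B. Each dot is a library and each line a group mean, YTHDF1 KO in red on the left of each pair and WT in dark blue on the right. The red and blue dots are apart for RNF213, RNF114, RNF19B, RNF122, RNF125 and RNF26, and overlap for RNF135, RNF115, RNF5 and RNF166.

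Genes that work with RIG-I were set beside these ligases. The role groups and the partner lists were chosen with earlier results of these data known. Over all genes tested 27.2% rose and 26.3% fell. The counts in the role groups and partner lists, here and below, were not tested against these shares. Of 8 RIG-I pathway partners 7 rose and 1 fell (median log2 fold change 0.42). RIGI, the RNA sensor itself, averaged 650 ± 34.8 CPM in YTHDF1 KO and 15.6 ± 2.16 CPM in WT, a log2 fold change of 5.37 (edgeR adjusted p = 2.33e-35). TRIM25, a RING ligase that also acts on RIG-I, averaged 420 ± 8.09 CPM in YTHDF1 KO and 99.3 ± 1.98 CPM in WT (log2 fold change 2.08, edgeR adjusted p = 1.01e-28). OTUD4, a deubiquitinase that stabilises MAVS, averaged 133 ± 10.8 CPM in YTHDF1 KO and 88.2 ± 7.18 CPM in WT (log2 fold change 0.59, edgeR adjusted p = 9.38e-11). All 8 interferon-stimulated reference genes rose, with a median of 7.13. Among them were IFIT2 at a log2 fold change of 9.35, IFIT1 at 8.17 and IFIT3 at 7.29. RNF213, at 1.81, lay below each of these 3.

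RBR ligases hold the ubiquitin on their own active-site cysteine before passing it to the substrate. Of the 6 members of this kind outside the linear ubiquitin group, 4 rose and 2 were not called (median log2 fold change 0.29). RNF19B (ENSG00000116514, chr1:32936445-32964685, minus strand), known as the natural killer lytic-associated molecule and active in macrophages and natural killer cells, had 83.3, 84.8 and 89.6 CPM in the YTHDF1 KO libraries, against 17.2, 16.8 and 14.6 CPM in the WT libraries. At 5.32-fold higher (log2 fold change 2.41, SE 0.0673, edgeR adjusted p = 5.71e-25) it had the largest rise of the members tested. RNF19A, its close relative, known as dorfin, rose less. It had 58.8, 63.3 and 60.6 CPM in YTHDF1 KO, against 45.5, 43.8 and 51.1 CPM in WT (log2 fold change 0.38, edgeR adjusted p = 3.35e-06).

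RNF144B, a p53-inducible ligase, was scarce, with 2.66, 1.52 and 1.84 CPM in YTHDF1 KO, against 0.844, 1.19 and 0.649 CPM in WT. Its groups did not overlap and its log2 fold change was 1.18 (SE 0.318, edgeR adjusted p = 0.00202). RNF14, a ligase that acts on proteins stuck at stalled ribosomes, averaged 68.9 ± 2.63 CPM in YTHDF1 KO and 59.5 ± 3.001 CPM in WT (log2 fold change 0.21, edgeR adjusted p = 0.00168). RNF144A, a membrane-bound ligase, averaged 22.2 ± 0.93 CPM in YTHDF1 KO and 19.96 ± 1.66 CPM in WT (edgeR adjusted p = 0.126). For RNF217 the means were 56.2 ± 1.52 CPM in YTHDF1 KO and 59.3 ± 4.03 CPM in WT (edgeR adjusted p = 0.277).

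Linear ubiquitin chains are made by the LUBAC complex, in which RNF31 (HOIP) is the catalytic subunit, and they switch on NF-kB signalling downstream of TNF receptors. Of the 5 members that act on linear ubiquitin, NF-kB and cell death, 4 were tested and not called by edgeR or DESeq2, and RNF31 did not pass the filter. At an unadjusted p under 0.05 in edgeR 1 of the 4, RNF11, was lower, and limma-voom called it. RNF31 (chr14:24146683-24160661, plus strand) had 10, 11 and 5 counts in the YTHDF1 KO libraries and 4, 6 and 3 counts in the WT libraries. In GENCODE 29, 34.8% of its exonic bases overlap AL136295.5 on the same strand. IRF9, a neighbouring gene for an interferon signalling factor, also had few counts, 18, 20 and 18 in YTHDF1 KO and 5, 5 and 3 in WT. The sources used here do not state how reads in shared exons were assigned, and the RNF31 row is therefore not read as its level. With no filter its log2 fold change was 0.83 (SE 0.888, edgeR adjusted p = 0.556).

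RNF11, a small adaptor of the A20 complex that ends NF-kB signalling, lay at the threshold. It had 54.9, 61.4 and 58.8 CPM in YTHDF1 KO, against 66.8, 61.3 and 63.9 CPM in WT (log2 fold change -0.13, SE 0.0571, edgeR adjusted p = 0.0505). It was called lower without YTHDF1 KO replicate 2 (edgeR adjusted p = 0.0353), without WT replicate 2 (edgeR adjusted p = 0.0287) and under RLE scaling (edgeR adjusted p = 0.0461). A filter of 1 CPM in 3 libraries gave that call too (edgeR adjusted p = 0.0436). RNF216, an RBR ligase known as TRIAD3 that acts on Toll-like receptors and RIP kinases, averaged 86.7 ± 1.78 CPM in YTHDF1 KO and 82.6 ± 3.37 CPM in WT (approximate 95% interval of the log2 fold change -0.03 to 0.17). RNF34, an inhibitor of cell death that acts on caspases, averaged 34.6 ± 2.06 CPM in YTHDF1 KO and 32.3 ± 2.21 CPM in WT (interval -0.04 to 0.24). RNF138, a ligase of NF-kB signalling and of DNA end resection, averaged 15.6 ± 1.06 CPM in YTHDF1 KO and 15.4 ± 1.44 CPM in WT (interval -0.17 to 0.21).

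Of 8 linear ubiquitin partners 5 rose, 1 fell and 2 were not called (median log2 fold change 0.55). Over all genes tested 27.2% rose and 26.3% fell, and whether the shares in this list differ was not tested. TNFAIP3, which encodes A20, averaged 325 ± 15.4 CPM in YTHDF1 KO and 73.0 ± 7.97 CPM in WT (log2 fold change 2.15, edgeR adjusted p = 9.57e-26). RBCK1, which encodes the LUBAC subunit HOIL-1, averaged 427 ± 19.5 CPM in YTHDF1 KO and 166 ± 8.04 CPM in WT (log2 fold change 1.36, edgeR adjusted p = 9.95e-23). RIPK1, a kinase that carries linear chains, averaged 60.99 ± 0.63 CPM in YTHDF1 KO and 34.0 ± 1.89 CPM in WT (log2 fold change 0.84, edgeR adjusted p = 1.09e-13). SHARPIN, the remaining LUBAC subunit, was the gene that fell, with 45.0 ± 2.56 CPM in YTHDF1 KO and 50.5 ± 2.19 CPM in WT (log2 fold change -0.17, edgeR adjusted p = 0.0235).

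At DNA double-strand breaks RNF8 and then RNF168 ubiquitylate histones so that repair proteins can bind, and RNF169 competes for the same mark. Of the 6 members of the DNA damage response 4 rose and 2 were not called (median log2 fold change 0.25). RNF8 had 24.2, 28.1 and 24.7 CPM in the YTHDF1 KO libraries, against 18.1, 18.2 and 17.5 CPM in the WT libraries (log2 fold change 0.52, SE 0.0821, edgeR adjusted p = 1.92e-06). RNF168 had 26.2, 27.7 and 25.4 CPM in YTHDF1 KO, against 26.2, 26.98 and 25.1 CPM in WT, and the groups covered nearly the same range. Its log2 fold change was 0.02, with an approximate 95% interval of -0.13 to 0.17 (edgeR adjusted p = 0.836). RNF169 had 45.5, 46.5 and 48.9 CPM in YTHDF1 KO, against 31.3, 30.2 and 30.7 CPM in WT (log2 fold change 0.61, SE 0.0640, edgeR adjusted p = 6.59e-10). In GENCODE 29, 27.9% of its exonic bases overlap XRRA1 on the opposite strand, so its level is uncertain, and XRRA1 itself changed the other way, by -0.91 on the log2 scale.

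RNF4 and RNF111 (Arkadia) are SUMO-targeted ligases, which ubiquitylate proteins already modified with SUMO, and RNF111 also degrades repressors of TGF-beta signalling. RNF4 averaged 73.1 ± 1.78 CPM in YTHDF1 KO and 62.2 ± 3.76 CPM in WT (log2 fold change 0.23, edgeR adjusted p = 0.000579). Overlap with genes on the same strand covers 6.44% of the exonic bases of RNF4. RNF111 averaged 101 ± 3.35 CPM in YTHDF1 KO and 83.1 ± 2.62 CPM in WT (log2 fold change 0.28, edgeR adjusted p = 1.36e-05). RNF146, which ubiquitylates proteins marked with poly-ADP-ribose, averaged 24.8 ± 1.83 CPM in YTHDF1 KO and 23.6 ± 1.81 CPM in WT (edgeR adjusted p = 0.488, interval -0.09 to 0.23).

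Most of the listed substrates, readers and partners of this pathway fell. Of 12 DNA break ubiquitin partners 8 fell, 2 rose and 2 were not called (median log2 fold change -0.41). Over all genes tested 26.3% fell, and whether the share in this list differs was not tested. H2AX, the histone variant phosphorylated at breaks, averaged 36.8 ± 2.10 CPM in YTHDF1 KO and 77.9 ± 3.14 CPM in WT (log2 fold change -1.08, edgeR adjusted p = 6.39e-17). PAXIP1, a scaffold of the 53BP1 pathway, averaged 18.3 ± 1.08 CPM in YTHDF1 KO and 31.0 ± 0.870 CPM in WT (log2 fold change -0.76, edgeR adjusted p = 3.47e-10). HERC2, a partner of RNF8, averaged 171 ± 3.16 CPM in YTHDF1 KO and 242 ± 5.55 CPM in WT (log2 fold change -0.50, edgeR adjusted p = 4.66e-12). Of 10 SUMO pathway genes 5 fell, 2 rose and 3 were not called, with a median of -0.14. The SUMO proteases SENP1 and SENP6 had log2 fold changes of -0.42 and -0.32, and the SUMO-activating subunit UBA2 one of -0.23.

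**Figure D4:**
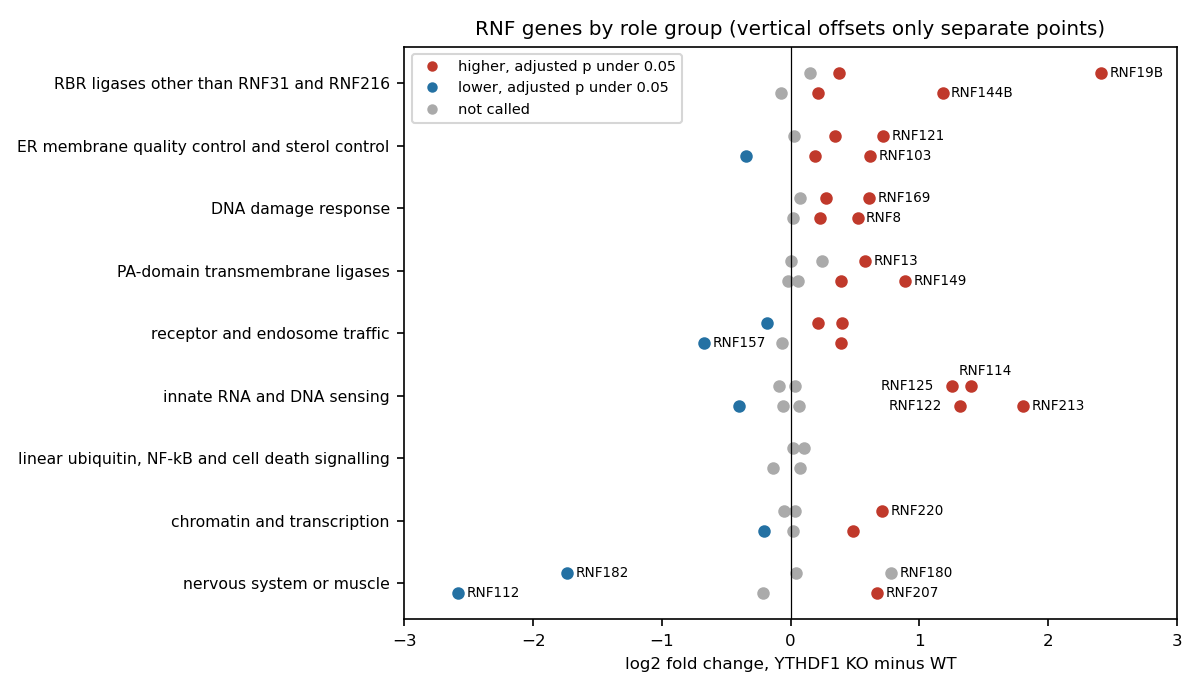
Log2 fold change (YTHDF1 KO minus WT) of the RNF genes tested in 9 role groups, each dot a gene, with the call shown by colour and genes past 0.5 in either direction named. Red dots stand alone to the right among the RBR ligases and in the sensing group, while the linear ubiquitin group has grey dots only.

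Chromatin and transcription held 7 members, of which 2 rose, 1 fell, 3 were not called and RNF113B was at 0 in every library. RNF20 and RNF40 form the complex that puts ubiquitin on histone H2B, and the calls of the partners went opposite ways. RNF20 had 66.8, 66.0 and 61.2 CPM in YTHDF1 KO, against 73.1, 75.5 and 75.3 CPM in WT (log2 fold change -0.21, SE 0.0533, edgeR adjusted p = 0.00141). RNF40 had 120, 111 and 110 CPM in YTHDF1 KO, against 83.1, 84.0 and 77.0 CPM in WT (log2 fold change 0.48, SE 0.0512, edgeR adjusted p = 8.75e-10). As 47.2% of the exonic bases of RNF40 overlap genes on the opposite strand, its level is uncertain. RNF2 (RING1B), the catalytic subunit of the Polycomb complex PRC1, averaged 28.3 ± 0.826 CPM in YTHDF1 KO and 29.2 ± 1.88 CPM in WT (edgeR adjusted p = 0.609, interval -0.19 to 0.09). RNF220, a ligase that acts in Wnt and Hedgehog signalling, averaged 34.3 ± 1.52 CPM in YTHDF1 KO and 21.0 ± 2.20 CPM in WT (log2 fold change 0.71, edgeR adjusted p = 2.12e-09). RNF6, a ligase of the androgen receptor, and RNF113A, a spliceosome-associated ligase, were not called, at log2 fold changes of 0.03 and 0.02. As 25.2% of the exonic bases of RNF113A overlap NDUFA1 on the opposite strand, its level is uncertain.

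Of 18 partners of PRC1 and of H2B ubiquitin 8 rose, 1 fell and 9 were not called (median log2 fold change 0.18). The PRC1 subunit gene PCGF5 averaged 175 ± 7.58 CPM in YTHDF1 KO and 41.3 ± 2.36 CPM in WT (log2 fold change 2.08, edgeR adjusted p = 4.01e-26). UBE2B, an E2 that works with RNF20 and RNF40, had a log2 fold change of 0.55 (edgeR adjusted p = 6.27e-10).

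ER membrane ligases remove misfolded proteins and control sterol synthesis. Of the 8 members of this group 4 rose, 1 fell, 1 was not called and RNF183 and RNF186 were not tested. RNF121, a ligase of the ER and Golgi membranes, had 68.9, 71.1 and 71.5 CPM in YTHDF1 KO, against 44.3, 41.7 and 42.1 CPM in WT (log2 fold change 0.72, SE 0.0561, edgeR adjusted p = 6.42e-13). RNF103, an ER ligase, had 65.3, 64.2 and 60.9 CPM in YTHDF1 KO, against 39.1, 41.8 and 43.3 CPM in WT (log2 fold change 0.62, edgeR adjusted p = 1.06e-10). For RNF103, opposite-strand overlap covers 18.042% of the exonic bases, and 6.69% overlap the readthrough gene RNF103-CHMP3 on the same strand. RNF170, which degrades activated IP3 receptors, averaged 48.2 ± 0.539 CPM in YTHDF1 KO and 38.0 ± 2.05 CPM in WT (log2 fold change 0.34, edgeR adjusted p = 1.91e-05).

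RNF185, a partner of RNF5 in ER-associated degradation, had 40.3, 34.7 and 34.0 CPM in YTHDF1 KO, against 31.3, 33.5 and 30.8 CPM in WT (log2 fold change 0.19, edgeR adjusted p = 0.0274). Its call was lost without YTHDF1 KO replicate 1, without WT replicate 1 and without WT replicate 3. RNF145 (chr5:159157409-159210053, minus strand), a sterol-responsive ligase that degrades HMG-CoA reductase and acts on the SREBP escort protein SCAP, fell. It had 299.6, 292 and 292 CPM in YTHDF1 KO, against 376, 369 and 376 CPM in WT, a log2 fold change of -0.34 (SE 0.0399, edgeR adjusted p = 6.12e-09). RNF139 (TRC8), another sterol-sensing ligase, averaged 41.9 ± 3.37 CPM in YTHDF1 KO and 41.3 ± 1.93 CPM in WT (edgeR adjusted p = 0.792). Of 11 partners of ER ligases 4 rose, 3 fell and 4 were not called, with a median of -0.07. INSIG1, the sterol sensor that holds SCAP in the ER, averaged 282 ± 11.0 CPM in YTHDF1 KO and 148 ± 6.89 CPM in WT (log2 fold change 0.93, edgeR adjusted p = 3.69e-18). SEL1L, the adaptor of the ligase SYVN1, had a log2 fold change of -0.43.

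PA-domain ligases cross the membrane and carry a protease-associated domain on the outer side, with which several act on receptors and vesicle proteins. Of 9 such members 3 rose, 4 were not called and RNF133 and RNF148 were not tested. RNF149, a ligase reported to act on BRAF, had 142, 146 and 141 CPM in YTHDF1 KO, against 80.4, 73.5 and 77.8 CPM in WT (log2 fold change 0.89, SE 0.0483, edgeR adjusted p = 5.94e-17). RNF13, an endosomal and lysosomal ligase, had 83.2, 85.0 and 78.8 CPM in YTHDF1 KO, against 54.7, 55.7 and 54.7 CPM in WT (log2 fold change 0.58, edgeR adjusted p = 2.91e-11). RNF167, a lysosomal relative of RNF13, averaged 57.8 ± 2.79 CPM in YTHDF1 KO and 44.0 ± 2.82 CPM in WT (log2 fold change 0.39, edgeR adjusted p = 1.68e-06). RNF130 averaged 44.7 ± 1.31 CPM in YTHDF1 KO and 45.3 ± 0.923 CPM in WT and was not called. RNF128, known as GRAIL in T cells, was scarce, with 1.26 ± 0.306 CPM in YTHDF1 KO and 1.05 ± 0.0748 CPM in WT. RNF150 averaged 4.62 ± 0.282 CPM in YTHDF1 KO and 4.44 ± 0.288 CPM in WT, and neither was called.

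RNF43 removes Wnt receptors from the cell surface and is restrained by R-spondins. It averaged 2.45 ± 0.479 CPM in YTHDF1 KO and 2.46 ± 0.690 CPM in WT, and since 59.5% of its exonic bases overlap SUPT4H1 or another gene on the same strand, this level is uncertain. SUPT4H1 itself had 0 counts in the YTHDF1 KO libraries and 0, 3 and 3 counts in the WT libraries. Of 7 tested Wnt receptor turnover partners 3 rose, 3 fell and 1 was not called (median log2 fold change -0.19). The Wnt receptor gene FZD6 averaged 28.2 ± 3.91 CPM in YTHDF1 KO and 72.4 ± 0.913 CPM in WT (log2 fold change -1.36, edgeR adjusted p = 1.99e-17). ZNRF3, the close relative of RNF43, had a log2 fold change of -0.73 (edgeR adjusted p = 1.88e-09), and the receptor gene FZD5 one of 0.77 (edgeR adjusted p = 1.63e-10).

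In the role group named receptor and endosome traffic 3 members rose, 2 fell, RNF10 was not called and RNF152 was not tested. The roles given below for RNF25, RNF126 and RNF10 lie outside such traffic. RNF24, a Golgi membrane protein, had 90.3, 89.8 and 86.0 CPM in YTHDF1 KO, against 68.9, 66.5 and 66.4 CPM in WT (log2 fold change 0.40, edgeR adjusted p = 3.87e-08). RNF25, which also ubiquitylates the ribosome when translation stalls, had 34.2, 28.5 and 30.3 CPM in YTHDF1 KO, against 24.4, 23.6 and 22.8 CPM in WT (log2 fold change 0.39, edgeR adjusted p = 6.82e-05). RNF126, a cytosolic quality control ligase that works with BAG6, averaged 34.5 ± 0.912 CPM in YTHDF1 KO and 29.7 ± 0.286 CPM in WT (log2 fold change 0.22, edgeR adjusted p = 0.00759). RNF41 (NRDP1), which acts on ERBB3 and other receptors, had 35.0, 34.0 and 34.7 CPM in YTHDF1 KO, against 39.3, 39.2 and 39.4 CPM in WT (log2 fold change -0.19, edgeR adjusted p = 0.0145). The call of RNF41 was lost without YTHDF1 KO replicate 2 (edgeR adjusted p = 0.0613). RNF157, a ligase studied in neurons, had 6.01, 5.37 and 8.01 CPM in YTHDF1 KO, against 10.6, 10.3 and 10.1 CPM in WT (log2 fold change -0.67, SE 0.134, edgeR adjusted p = 6.72e-05). RNF10, another ligase of stalled ribosomes, averaged 164 ± 8.33 CPM in YTHDF1 KO and 172 ± 5.01 CPM in WT (edgeR adjusted p = 0.215).

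RNF152, a lysosomal ligase that restrains mTORC1, was not tested because its counts were low: 18, 12 and 10 in the YTHDF1 KO libraries and 4, 0 and 0 in the WT libraries. With no filter its log2 fold change was 3.17 (SE 0.962, edgeR adjusted p = 0.00439), and it was the untested member that passed the threshold there. RNF7 (RBX2, SAG), the RING subunit of cullin ligases, had 39.8 ± 0.197 CPM in YTHDF1 KO and 39.2 ± 2.49 CPM in WT and was not called (interval -0.11 to 0.15). Of 12 cullin-RING partners 4 rose, 3 fell and 5 were not called, with a median of 0.02. Among them UBE2F, the NEDD8-conjugating partner of RNF7, had a log2 fold change of 0.52, CUL1 one of 0.19 and NAE1, a subunit of the NEDD8-activating enzyme, one of -0.29.

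Members known from the germline, nervous system or muscle were scarce in this lung line, with the exception of RNF207. RNF212, which stabilises meiotic crossovers, was measured at 6.94, 5.81 and 5.63 CPM in YTHDF1 KO, against 1.48, 1.34 and 1.47 CPM in WT. It was 4.25-fold higher (log2 fold change 2.09, SE 0.191, edgeR adjusted p = 3.07e-11), second only to RNF19B among the members tested. The germline members RNF17, RNF151 and RNF212B were not tested, and their counts were at most 11 in a YTHDF1 KO library and 15 in a WT library. RNF207, a gene linked to cardiac repolarisation, had 46.1, 42.9 and 45.5 CPM in YTHDF1 KO, against 27.6, 29.1 and 27.7 CPM in WT (log2 fold change 0.67, SE 0.0659, edgeR adjusted p = 1.63e-10). RNF112, a brain-enriched GTPase-like protein, had 0.310, 0.221 and 0 CPM in YTHDF1 KO, against 1.03, 1.00 and 1.07 CPM in WT (log2 fold change -2.58, SE 0.574, edgeR adjusted p = 0.000278). RNF182, a brain-enriched membrane ligase, had 0.372, 0.490 and 0.246 CPM in YTHDF1 KO, against 1.27, 1.19 and 1.25 CPM in WT (log2 fold change -1.73, SE 0.415, edgeR adjusted p = 0.000639). Both falls rest on few counts. RNF180 had 0.867, 1.47 and 2.33 CPM in YTHDF1 KO, against 0.950, 0.742 and 1.02 CPM in WT, and was not called (log2 fold change 0.78, edgeR adjusted p = 0.0541). It was called higher with library size only, with a filter of 1 CPM in 3 libraries and without YTHDF1 KO replicate 1. RNF165 and RNF208 were not called either, at means between 1.15 and 2.43 CPM in YTHDF1 KO and between 1.33 and 2.38 CPM in WT.

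Of the 16 members with no role group, 2 rose, 1 fell and 8 were not called. RNF227 had 4.58, 5.88 and 4.62 CPM in YTHDF1 KO, against 2.98, 3.49 and 3.05 CPM in WT (log2 fold change 0.67, edgeR adjusted p = 0.00143). RNF215 averaged 35.0 ± 1.60 CPM in YTHDF1 KO and 28.5 ± 2.78 CPM in WT (log2 fold change 0.30, edgeR adjusted p = 0.00107). RNF214 had 15.1, 16.3 and 13.8 CPM in YTHDF1 KO, against 18.4, 17.0 and 17.9 CPM in WT (log2 fold change -0.24, edgeR adjusted p = 0.0300). Its call was lost without YTHDF1 KO replicate 1 or 3 and without WT replicate 1 or 3. It was also lost with library size only (edgeR adjusted p = 0.0523) and with no filter (edgeR adjusted p = 0.0519). Overlap with a gene on the opposite strand covers 29.2% of the exonic bases of RNF215 and 28.2% of those of RNF214, so both levels are uncertain. RNF123, RNF141, RNF181, RNF187 and RNF44 lay between 27.5 and 93.5 CPM in YTHDF1 KO and between 25.4 and 99.5 CPM in WT and were not called. RNF224 averaged 2.41 ± 0.397 CPM in YTHDF1 KO and 2.41 ± 0.455 CPM in WT, and RNF32 had 2.20, 2.65 and 2.73 CPM in YTHDF1 KO, against 2.29, 1.74 and 2.60 CPM in WT. Neither was called.

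The remaining members below the filter had at most 11 counts in any library. RNF113B, RNF186 and RNF39 were at 0 in the 6 libraries. RNF148 had 6, 2 and 0 counts, RNF17 had 0, 3 and 2 counts and RNF175 had 0, 2 and 0 counts in the YTHDF1 KO libraries, and each was at 0 in the WT libraries. RNF222 had 4, 11 and 7 counts in YTHDF1 KO and 6, 2 and 9 counts in WT. RNF133, RNF183, RNF223 and RNF225 had between 0 and 8 counts in the YTHDF1 KO libraries and between 0 and 6 in the WT libraries.

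Levels of different genes were compared per kilobase of exon. RNF213 was the highest member in YTHDF1 KO, at 98.9 ± 2.54 CPM per kilobase and ranked 3 in WT, at 28.2 ± 0.946. RNF145 ranked 2 in YTHDF1 KO, at 63.8 ± 0.964, and highest in WT, at 81.0 ± 0.811. RNF10 ranked 6 in YTHDF1 KO, at 27.8 ± 1.41 CPM per kilobase, and 2 in WT, at 29.1 ± 0.848. RNF19B, at 32.9 ± 1.26, and RNF114, at 32.7 ± 1.26, did not differ beyond their spread in YTHDF1 KO. In WT they ranked 36 and 18 of the members tested, at 6.21 ± 0.531 and 12.4 ± 0.469 CPM per kilobase. RNF149 reached 29.6 ± 0.564 CPM per kilobase in YTHDF1 KO and 15.97 ± 0.730 in WT. RNF10 and RNF213 overlapped within their SDs in WT.

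**Figure D5:**
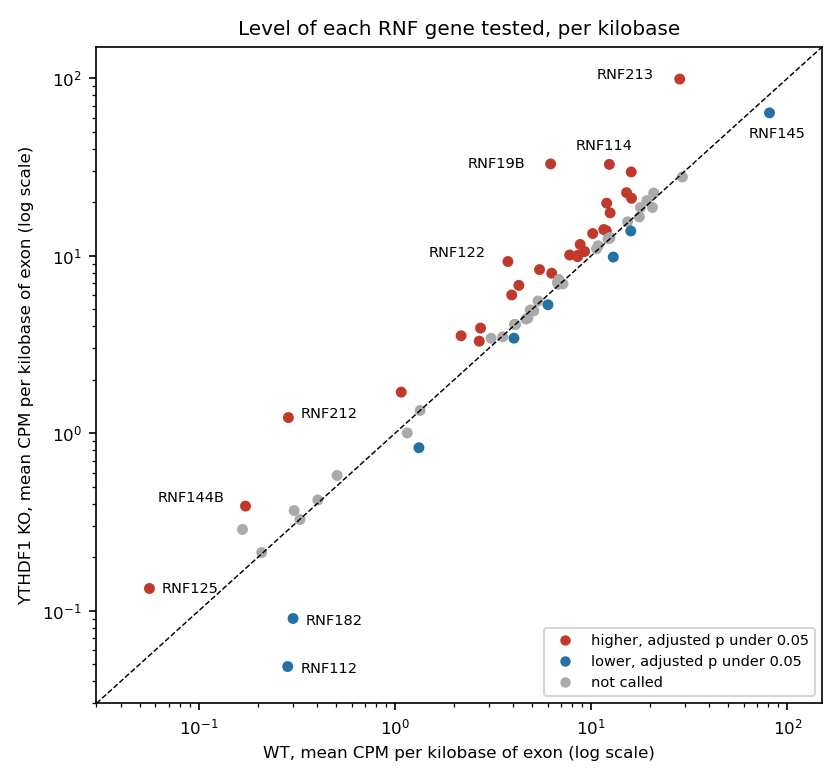
Mean level of each RNF gene tested in YTHDF1 KO (vertical axis) against WT (horizontal axis), in CPM per kilobase of exon on log scales, with the line of equal levels dashed and calls by colour. RNF213, RNF19B, RNF114, RNF122 and RNF212 stand above the line, while RNF145 at the top right and RNF182 and RNF112 at the bottom lie below it.

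RNF ligases depend on ubiquitin and on E2 enzymes shared by the whole family. Of 18 genes for ubiquitin activation and general E2 enzymes 7 rose, 7 fell and 4 were not called (median log2 fold change -0.02). UBE2L6, the E2 for the ubiquitin-like protein ISG15, averaged 324 ± 3.04 CPM in YTHDF1 KO and 29.4 ± 1.48 CPM in WT (log2 fold change 3.46, edgeR adjusted p = 3.12e-33). UBE2Z, an E2 charged by UBA6, averaged 341 ± 4.07 CPM in YTHDF1 KO and 230 ± 4.73 CPM in WT (log2 fold change 0.57, edgeR adjusted p = 9.07e-14).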

How the data were processed

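Total RNA of A549 cells was made into Illumina TruSeq stranded libraries, per the labels. The authors deposited a table of raw counts, whole numbers per Ensembl gene with 1 column a library, and titles gave each library its group. Per the submitters' processing notes, Trim Galore 0.6.6, STAR 2.7.0d, featureCounts 2.0.1, edgeR 3.32.1 and GRCh38 were used; the sources used here do not give their roles, the annotation, the strand setting or the handling of shared reads.

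Symbols came from a symbol table for 42000 rows and from GENCODE 29 for 16605, and 2012 had none. Counts were fitted with edgeR 4.0.16 in R 4.3.3: filterByExpr, TMM factors, the two-sided quasi-likelihood test with genotype as the only term, and Benjamini-Hochberg adjustment over all 18505 genes tested. The common biological coefficient of variation was 0.0617. Approximate 95% intervals are the log2 fold change ± 1.96 SE. The code was tested on simulated counts. Replicates differed by more than sampling noise (chi-square per degree of freedom 4.4 to 6.55), so none were merged. The floor of 3 counts covers counting error only.

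The named genes are YTHDF1, the 10 largest rises and 10 largest falls (6 qualified) among called members with a mean of at least 1 CPM, every member of 3 role groups, the 5 highest per kilobase, members below the filter, and up to 3 genes a partner list by smallest adjusted p. Other members are named for completeness, and 1 member tested and some genes of the partner lists are not reported here. The members, role groups and lists were chosen with earlier results of these data known. Promoters are RefSeq's. Alternatives were RLE factors, library size only, DESeq2 1.42.0, limma-voom from limma 3.58.1, no filter, a filter of 1 CPM, a block on replicate number, omission of each library, a threshold of 0.01, a test against a 1.5-fold change, and subsets of members.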

Additional observations from a re-analysis of the deposited data

How the results depend on the processing

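The counts of RNF genes were within 1.5 times the reported ones under RLE factors, library size only, DESeq2, limma-voom, no filter, 1 CPM in 3 libraries, an adjusted p of 0.01, and without overlapping or scarce members. A test against a 1.5-fold change called 9 members, 7 higher and 2 lower, and 2585 genes in all, 1573 higher and 1012 lower. The ratio of summed CPM was 1.69 with RNF213 and 1.15 without it, an alternative chosen after seeing the data, as was leaving out members with overlap on the same strand. Leaving out each library gave 34 to 38 called members (27 to 29 higher, 7 to 9 lower), a median log2 fold change of 0.09 to 0.14, and 1.78 to 1.83 for RNF213. With no filter the median was 0.16 over 81 members, against 0.09 over 69 with it. Leaving out single libraries took the calls of RNF125, RNF185, RNF214 and RNF41 and added those of RNF11 and RNF180. RNF11 was also called with RLE factors, limma-voom and the 1 CPM filter. RNF180 was also called with library size only and with the 1 CPM filter. The call of RNF214 was also lost with library size only and with no filter. Of 415 values of 32 named members, 400 kept their side of the threshold, 10 fell short of it and 5 passed it. No called value changed sign. Without a library, 8 values of 5 members that were not called (RNF5, RNF135, RNF138, RNF166 and RNF168) took the other sign. RNF31 had no value in the reported fit. Replicate numbers are shared between the groups, but same-numbered libraries did not deviate together (r = -0.026, -0.014 and 0.008). With the replicate block 36 members were called, the same 36 genes, and 9703 genes in all. Depth limits RNF125, RNF112, RNF182 and the 15 members below the filter.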

Other observations

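Some rows carry RNF names but are no family members. Of 24 rows for RNF pseudogenes and antisense genes, 7 were tested, of which 2 rose and 0 fell. Over all genes tested 27.2% rose and 26.3% fell, and so small a count tells little beside these shares. RNF213-AS1, whose level is uncertain, had a log2 fold change of 2.27 (SE 0.0992, edgeR adjusted p = 1.74e-19). The pseudogene RNF216P1 averaged 27.4 ± 1.26 CPM in YTHDF1 KO and 15.9 ± 0.670 CPM in WT (log2 fold change 0.79, edgeR adjusted p = 4.09e-10), while its parent gene RNF216 was not called at 0.07. The sources used here do not state how reads that match both were counted. PSME2, the neighbour of RNF31 on the opposite strand, had a log2 fold change of 1.91.

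N6-methyladenosine, the mark that YTHDF1 binds, is often found in the sequence GGACT. Its density in the longest GENCODE 29 transcript had a median of 1.08 per kilobase in the 28 members called higher (quartiles 0.692 and 1.6). The median was 0.707 in the 8 called lower (quartiles 0.459 and 1.34) and 0.877 in the 33 not called (quartiles 0.561 and 1.09). The ranges between quartiles overlapped, and no difference was tested. Over all protein-coding genes tested the median was 0.952 in genes called higher, 0.907 in genes called lower and 0.939 in genes not called. These are descriptions of sequence and measure no methylation.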
